A study of Pimephales promelas with 191 samples.

Results

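Guanylurea was the one compound weighed here: libraries from fish exposed to it were set against libraries from fish that were not, with metformin balanced between the sides. Every liver library of the study entered, 95 with guanylurea present and 96 with it absent. The present side joined guanylurea alone (100 µg/L) and a mixture of 41 µg/L metformin with 100 µg/L guanylurea, and the absent side joined the control group and metformin alone (41 µg/L). Every fish was an adult male fathead minnow (Pimephales promelas), and the tissue was liver. Collection was at 6, 24, 48 and 96 h, with 24 libraries on each side of every time except 23 with guanylurea at 24 h. The contrast took the difference between the sides at each time, within each metformin level, and averaged it with equal weight. It therefore joins 2 arms that share no library, each measured at 4 times. The metformin-free arm is guanylurea minus control, and the metformin arm is mixture minus metformin.

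Metformin is a biguanide drug given for type 2 diabetes that leaves the body largely unaltered and reaches rivers through sewage. Bacteria in sewage works turn it into guanylurea, which lacks the methyl groups of metformin and carries a carbonyl group in place of an imino group. In mammals metformin acts on liver energy metabolism and glucose output, and guanylurea is studied mainly as a persistent residue in water. The liver of a male fish makes plasma proteins, handles glucose and lipid and clears foreign compounds, so it is a usual organ for asking whether a dissolved compound reaches the transcriptome.

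The libraries held 12.7 to 28 M estimated counts each, over 18905 to 22376 genes with a count. Totals averaged 19.9 M ± 2.58 (SD, n = 95) with guanylurea and 19.4 M ± 2.55 (SD, n = 96) without (permutation test within time and metformin level, 2-sided, p = 0.106, adjusted p = 0.261 over 3 measures). The share of counts in the 10 most abundant genes was 29.3% ± 4 (SD, n = 95) with guanylurea and 30% ± 4.16 (SD, n = 96) without (same test, p = 0.261, adjusted p = 0.261). Guanylurea accounted for 1.12% of the spread on the first principal component of expression and for 0.0225% on the second. In 8 libraries the profile agreed poorly with its own group, and 2 of these 8 carried guanylurea, both in the mixture. None of the 26150 gene identifiers matched the RefSeq gene table of the species (assembly fPimPro1.hap1.1, 64593 genes), and the files do not pair them with names. Genes are therefore described by level, size of change and behaviour, 4 of them by identifier, and liver markers could not be looked up. No label tells whether a library is 1 fish, a pool or a repeat from 1 tank. The p-values below thus weigh differences against the scatter among these libraries, and part of that scatter may be technical. Were livers of a group to share a tank, tank and treatment could not be told apart. The p-values would then be too small.

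Averaged over the 4 times, few liver genes differed with guanylurea, and nearly all of those were lower where it was present. A gene was called at an adjusted p under 0.05 (edgeR quasi-likelihood, Benjamini-Hochberg over all genes), and 25 of 18145 genes were, which is 0.138%. Of the 25, 24 were lower with guanylurea (0.132% of genes) and 1 was higher. Among all tested genes 52.6% had a fitted difference below 0. The transcript counts were less one-sided, with 157 of 27602 transcripts called and 83 of them lower. Several transcripts can belong to 1 gene, so the 2 counts are not of like units. In bulk tissue, less RNA per cell and fewer cells of a type cannot be told apart.

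DESeq2 called 64 genes, 55 of them lower, and limma voom with quality weights called 17, all 17 lower. The 3 tools shared 11 of the 25 genes. Genes at an unadjusted p under 0.05 made up 7.47% of the table (1356 genes, where 907.2 would be expected with no effect). The 95% intervals bounded the averaged change to less than 1.5-fold for 87.2% of genes and to less than 2-fold for 96.8%. Without the 8 libraries of low agreement edgeR called 50 genes, 40 of them lower, and 20 of the 25 were among them. Leaving out all libraries of 1 replicate number called between 12 genes (without number 7) and 72 genes (without number 9), and leaving out the 96 h collection called 11. Between 10 and 25 of the 25 genes stayed called without 1 number, and 7 of the 25 did so in all 12 such fits. Without 96 h 8 of the 25 stayed called.

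**Figure D1:**
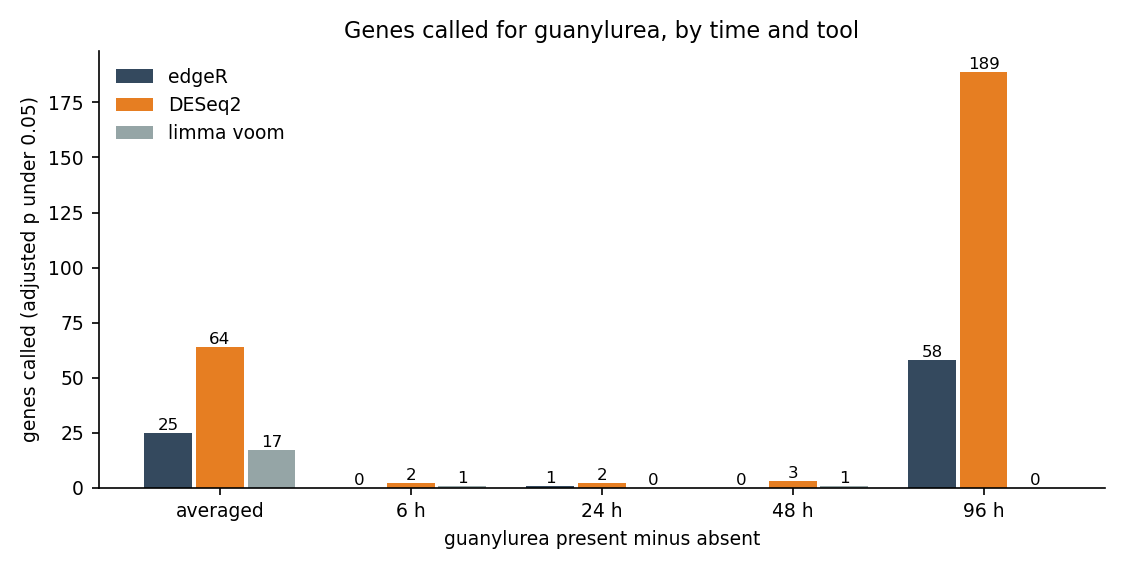
Bars give the number of genes called for guanylurea present minus absent at an adjusted p under 0.05, averaged over times and at each time in a fit of that time, for 3 tools. EdgeR called 25 genes on average over times and 58 at 96 h, where limma voom called 0.

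The 25 genes fell into 2 kinds by the size of the fitted change. The first kind were 15 genes that changed by less than 2-fold, from 0.21 to 0.87 on the log2 scale. These genes were expressed in nearly every liver, since 1 of the 15 had any library at a count of 0. Their SD between libraries of a group had a median of 0.616 log2 CPM (CPM, counts per M counts of the library), against 0.556 for all tested genes. DESeq2 called 15 of the 15 and limma voom 11. The second kind were 10 genes with a fitted change of 2-fold or more, of which 8 had libraries at a count of 0, in 8.38% to 67% of all libraries. Their SD within groups had a median of 1.71 log2 CPM. DESeq2 called 5 of these 10 and limma voom 0. Measured as a difference between mean log2 CPM values, which damps low counts, 10 of the 10 lay under 2-fold. By that measure FMg021927, a gene of the first kind, had the largest change of the 25 at −1.03. The split by size thus depends on the measure.

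The gene of smallest p was FMg019406, which was lower with guanylurea by 0.36 on the log2 scale (SE 0.0633, 95% interval −0.49 to −0.24, edgeR adjusted p = 0.000509). It was expressed at a moderate level in every library, with an edgeR average log2 CPM of 3.41 and a within-group SD of 0.435. Pooled over groups, its CPM ran from 4.16 through a median of 9.09 to 16.8 with guanylurea, and from 5.85 through 11 to 19.3 without. The ranges overlap widely, and 68 of 95 guanylurea libraries lay below the median of the others.

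At 6 h the lowest, median and highest CPM of FMg019406 were 6.25, 11.5 and 18.9 in controls and 4.53, 6.41 and 13.5 with guanylurea alone. At the same time they were 6.81, 10.8 and 18.3 with metformin and 7.43, 9.59 and 14.6 with the mixture. The guanylurea livers were the lowest group, and 11 of 12 lay below the control median, while 7 of 12 mixture livers lay below the metformin median. At 24 h the values were 8.47, 10.4 and 17.9 in controls, 4.16, 7.96 and 13.7 with guanylurea, 5.85, 11.1 and 18 with metformin, and 7.03, 11 and 16.4 with the mixture. Here 8 of 11 guanylurea livers lay below the control median, and the mixture and metformin medians were nearly equal. At 48 h the values were 7.03, 14 and 19.3 in controls, 4.5, 8.23 and 12.5 with guanylurea, 8.43, 10.9 and 18.4 with metformin, and 6.24, 9.39 and 15.9 with the mixture. All 12 guanylurea livers of 48 h lay below the control median, against 7 of 12 mixture livers below the metformin median. At 96 h the values were 6.86, 9.94 and 18.5 in controls, 4.85, 7.79 and 12 with guanylurea, 6.6, 11.1 and 18.1 with metformin, and 6.13, 9.1 and 16.8 with the mixture. Groups overlapped at each time, and 10 of 12 guanylurea and 9 of 12 mixture livers lay below their reference median at 96 h. With guanylurea alone the level went with library number, by cuts placed after the values were seen. At 6 h numbers 1 to 8 ran from 4.53 to 8.54 CPM and 9 to 12 from 7.45 to 13.5. At 24 h numbers 1 to 7 ran from 4.16 to 9.44 and 8 to 11 from 9.45 to 13.7. At 48 h numbers 1 to 8 ran from 4.5 to 9.16, save number 1 at 10.3, and 9 to 12 from 9.91 to 12.5. At 96 h numbers 1 to 8 ran from 4.85 to 9.06 and 9 to 12 from 7.85 to 12. The cause was not tested.

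In the fit of all libraries FMg019406 differed by −0.42 (SE 0.126) at 6 h and −0.23 (SE 0.128) at 24 h. It differed by −0.47 (SE 0.126) at 48 h and −0.32 (SE 0.126) at 96 h. The sign was the same at the 4 times, the test of a difference between times did not pass (edgeR adjusted p = 0.903), and no single time passed in its own fit (lowest edgeR adjusted p = 0.252, at 96 h). The averaged call held under each of 24 alternatives, at differences from −0.41 to −0.31 and adjusted p-values of 4.65e-05 to 0.0253. These include the same fit at a threshold of 0.10, which cannot lose a call. Leaving out any 1 library moved its difference of mean log2 CPM only between −0.37 and −0.35. None of the 24 alternatives left out a run of neighbouring library numbers. In FMg019406, controls and mixture livers numbered 1 to 8 overlapped those numbered 9 to 12 at each time. With metformin alone numbers 1 to 8 ran from 5.85 to 11.4 CPM at 24 h, save number 3 at 13.4. Numbers 9 to 12 ran there from 12.4 to 18, and at 6, 48 and 96 h the metformin runs overlapped.

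FMg021927, an abundant gene with an edgeR average log2 CPM of 10.11, had the next smallest p at −0.87 (SE 0.154, 95% interval −1.18 to −0.57, edgeR adjusted p = 0.000509). Its level spread far more between livers, with a within-group SD of 1.06 log2 CPM. The control medians were 1132 CPM at 6 h (lowest 313, highest 1679), 1940.4 at 24 h (301 and 2946), 1216 at 48 h (542 and 7190.3) and 963 at 96 h (318 and 1709.7). The medians with guanylurea alone were 242 CPM at 6 h (lowest 97.4, highest 1132), 297 at 24 h (139 and 999), 476 at 48 h (51.8 and 1403) and 314 at 96 h (59.0 and 964). Of the 47 livers of that treatment, 44 lay below the median of their same-time controls. Within this treatment the level went with library number, by cuts placed after the values were seen. At 6 h numbers 1 to 8 ran from 97.4 to 545 CPM and 9 to 11 from 526 to 1132, with number 12 at 204. At 24 h numbers 1 to 7 ran from 139 to 404 and 8 to 11 from 550 to 999. At 48 h numbers 1 to 8 ran from 51.8 to 485, save number 2 at 1206, and 9 to 12 from 759 to 1403. At 96 h numbers 1 to 8 ran from 59.0 to 412, save number 7 at 847, and 9 to 12 from 492 to 964. A like pattern was seen with metformin alone at 24 h. There numbers 1 to 8 ran from 425 to 1180, save number 3 at 2418, and 9 to 12 from 1420 to 3523. At 6, 48 and 96 h the same runs of metformin livers overlapped widely. Those of controls and of mixture livers overlapped at each time. The cause was not tested. The medians with the mixture were 709 CPM at 6 h (lowest 271, highest 7923), 1093 at 24 h (542 and 1671), 1325 at 48 h (404 and 3627) and 608 at 96 h (207 and 4302). Metformin alone gave medians of 1025 CPM (343 and 2966), 1159 (425 and 3523), 1188 (314 and 6087) and 1028 (294 and 1784) at the same times. Mixture and metformin livers overlapped at each time, and of the 48 mixture livers, 30 lay below the median of their same-time metformin group. The averaged call held under each of the same 24 alternatives, at differences from −0.98 to −0.76.

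FMg007005 was the 1 higher gene that passed, at 1.51 (SE 0.343, edgeR adjusted p = 0.0229). Its median was 0.313 CPM with guanylurea (n = 95) and 0.308 CPM without (n = 96), and 47 of 95 guanylurea libraries lay below the median of the others. A count of 0 was found in 18 libraries with guanylurea and 24 without. Above 10 CPM stood 3 libraries, each of guanylurea alone, at 20.9 CPM (6 h), 103.7 CPM (24 h) and 26.9 CPM (48 h), and the 5 highest guanylurea libraries carried 73.0% of the summed level. The highest library without guanylurea stood at 5.88 CPM. As a difference of mean log2 CPM the gene stood at 0.41, limma voom gave 0.40 (adjusted p = 0.867), and without the libraries numbered 10 edgeR gave 0.81 (adjusted p = 0.44). FMg013015, the higher gene of next smallest p, did not pass (0.94, SE 0.236, edgeR adjusted p = 0.0581). It is close to silent, with medians of 0.133 CPM with guanylurea and 0.0629 CPM without and a highest value of 1.99 CPM. Its difference was 1.53 (95% interval 0.87 to 2.2) in the metformin arm (edgeR adjusted p = 0.0971) and 0.35 (−0.29 to 0.98) in the metformin-free arm.

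**Figure D2:**
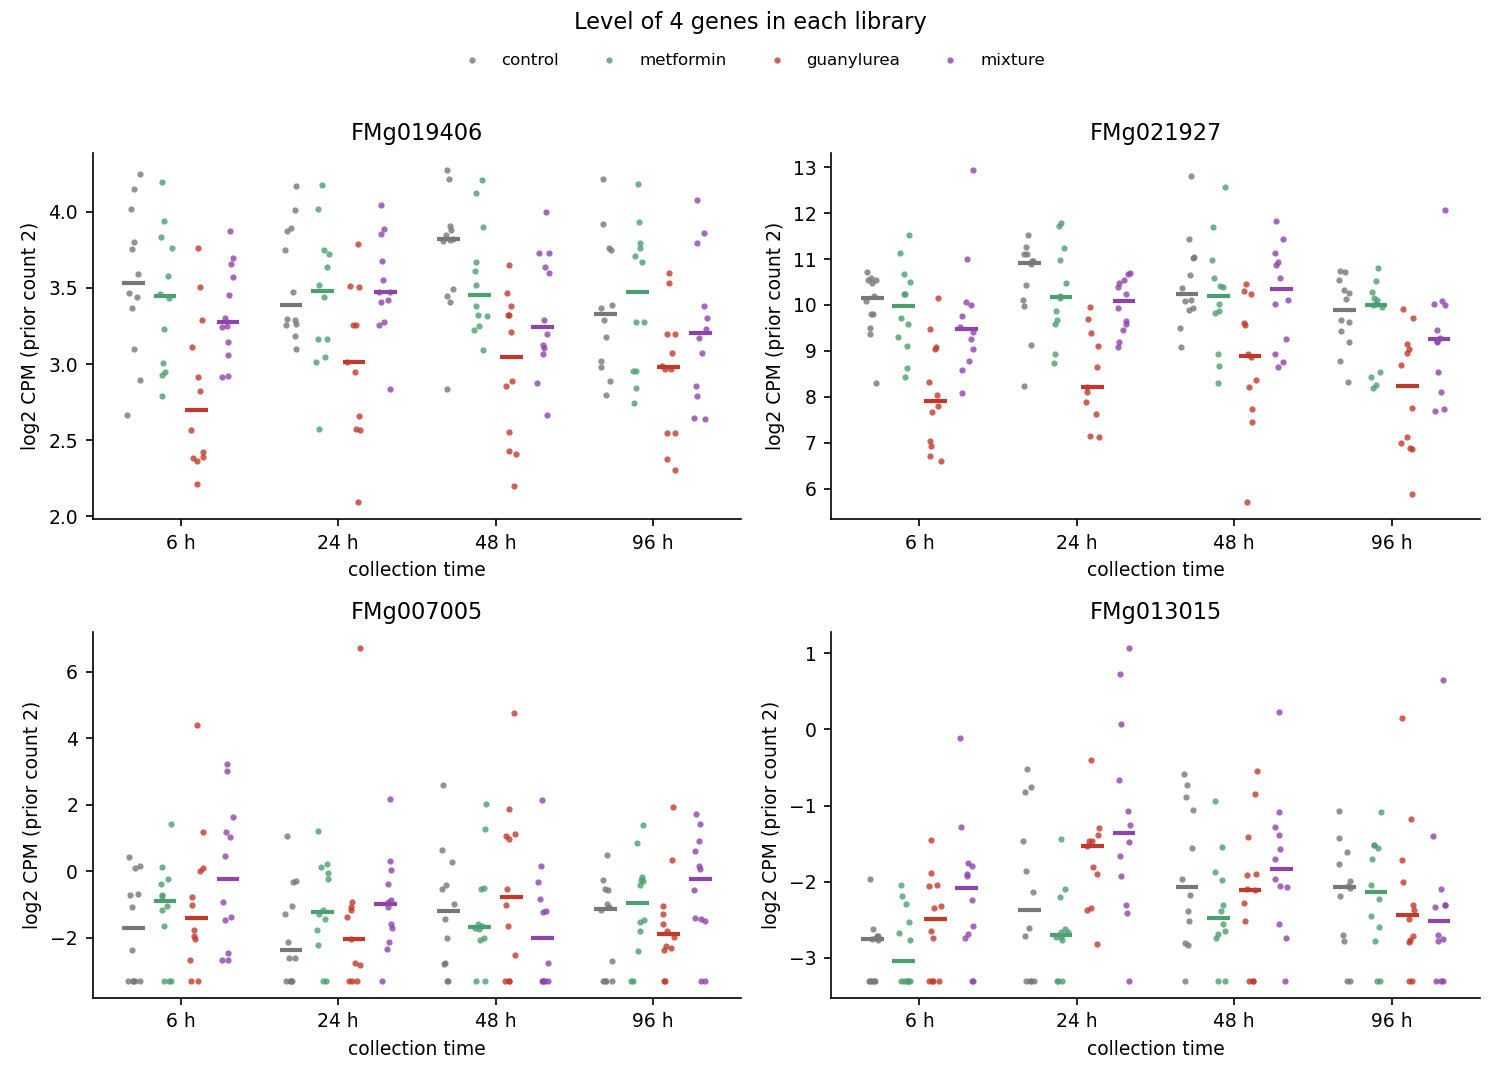
Points are single libraries and bars are group medians of log2 CPM for 4 genes, by collection time and treatment. The guanylurea-alone medians sit lowest for FMg019406 and FMg021927 at each time, whereas for FMg007005 the 3 highest livers are all of guanylurea alone.

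Each arm of the contrast was then taken by itself, which asks whether guanylurea did the same with metformin in the water as without it. Without metformin, 236 of 18145 genes were called (1.3%), and with metformin edgeR called 0 genes (0%), with 1706 genes at an unadjusted p under 0.05 where 907.2 would be expected. DESeq2 called 5 genes in the metformin arm and limma voom 3. Both counts moved with the processing: the 236 was 75 without the libraries numbered 4, 385 without number 9 and 112 without 96 h, and the 0 was 160 in the transcript table. The 236 genes were followed in the metformin arm, which did not choose them. There, 95 of the 236 moved in the same direction, or 40.3%, beside 42% of all 18145 genes. The 193 genes that were lower with guanylurea alone had a median log2 change of −0.40 against control and of 0.03 in the mixture against metformin. The 43 higher genes had medians of 0.82 and −0.06. Of the 236, 7 reached an unadjusted p under 0.05 in the same direction with metformin present, beside 500 of all 18145 genes. The share that kept its direction was near that of the whole table.

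Across all 18145 genes the averaged differences of the 2 arms had a Pearson correlation of −0.118 and a Spearman correlation of −0.185. This describes genes measured in the same libraries and scaled together, and genes are not independent replicates. In the order 6, 24, 48 and 96 h the Pearson values were −0.149, −0.151, 0.032 and 0.145. The difference between arms was tested gene by gene and called 240 genes (1.32%). Limma voom called 1381 in that test and DESeq2 406. In place of 240 it called 1 gene without the libraries numbered 5, 9 without number 7, 12 without number 6 and 489 without number 9, and every other number left out also moved the count by over 1.5 times.

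**Figure D3:**
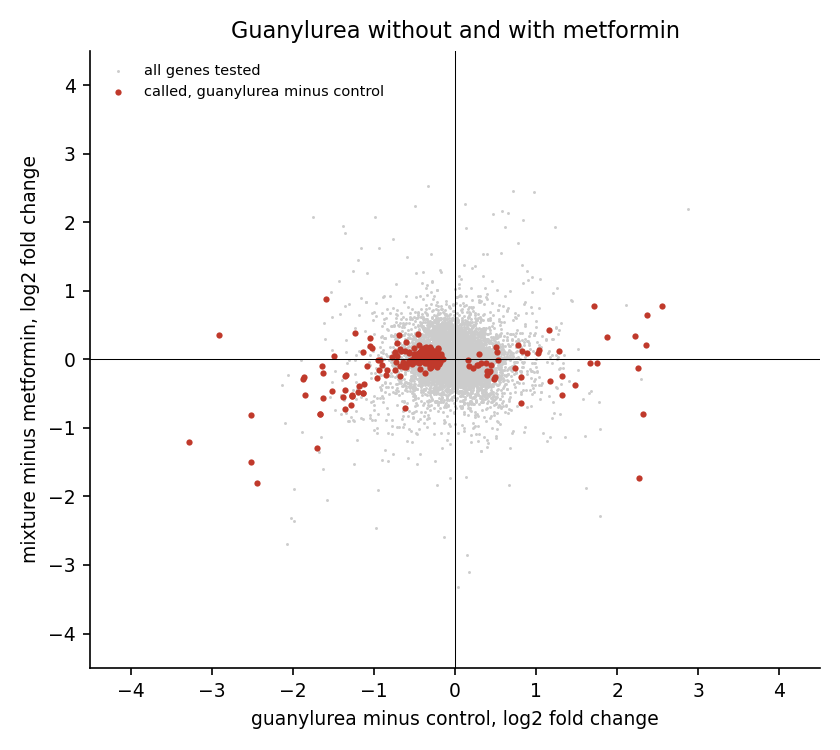
Each point is 1 gene, placed by its log2 fold change for guanylurea minus control (horizontal) and for mixture minus metformin (vertical), with the 236 genes called in the first in red. The red points spread to both sides along the horizontal axis but centre near 0 on the vertical axis, where 95 of 236 keep their direction (1 called gene lies outside the axes).

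The 25 genes called on the whole contrast lay on the same side of 0 in both arms, which the averaging itself favours. Their changes were larger without metformin in 20 of 25, beside 9643 of all 18145 genes. The 24 lower genes had a median log2 change of −0.98 without metformin (from −3.28 to −0.30) and of −0.43 with it (from −2.35 to −0.02). In the metformin-free arm 21 of the 25 passed by themselves, beside 1.3% of all genes. In the metformin arm 0 passed in edgeR, with 11 at an unadjusted p under 0.05, beside 9.4% of all genes.

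For 7 of the 25 genes the arms differed by the test of the difference itself, and these 7 were all lower genes of the less than 2-fold kind. Without metformin they changed by −1.64 to −0.42, and with metformin by −0.16 to −0.02, where the smallest unadjusted p was 0.182. FMg019406 was among them, at −0.60 (95% interval −0.78 to −0.43) without metformin and −0.12 (−0.30 to 0.06) with it. The difference was 0.48 (SE 0.126, edgeR adjusted p = 0.0302). FMg021927 stood at −1.64 (−2.08 to −1.20) and −0.10 (−0.53 to 0.32), a difference of 1.54 (SE 0.308, edgeR adjusted p = 0.0053). These calls depend on the libraries: without the libraries numbered 5, 0 of the 7 passed (7 of 7 at an unadjusted p under 0.05), without number 6, number 7 or the 48 h collection 1 passed, and without number 4, number 8, 6 h or 24 h 2 passed, while DESeq2 and limma voom called 7 of 7. The difference of FMg019406 passed under 12 of 22 alternatives (0.39 to 0.60, edgeR, DESeq2 or limma voom adjusted p from 0.00093 to 0.185) and that of FMg021927 under 21 of 22 (1.12 to 1.90, adjusted p from 1.49e-05 to 0.0577). The 7 genes kept the sign of the difference in each of the 22. FMg007005 stood at 2.37 (1.4 to 3.35) and 0.65 (−0.29 to 1.59), and its difference did not pass (edgeR adjusted p = 0.169).

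Values of like size in the 2 arms were also found. A lower gene of low abundance (edgeR average log2 CPM 0.84) stood at −0.62 without metformin and −0.71 with it (difference −0.08, 95% interval −0.58 to 0.42). It was lower in 8 of 8 strata, a stratum being 1 time at 1 metformin level. Another (edgeR average log2 CPM 2.94) stood at −0.35 and −0.37 (difference −0.01, −0.33 to 0.31) and was also lower in 8 of 8. In all, 5 of the 25 kept their direction in 8 of 8 strata and 9 in 7 of 8, beside 0.496% of all genes with 8 of 8. Selection on the average favours this, so the counts describe the genes and do not test them.

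**Figure D4:**
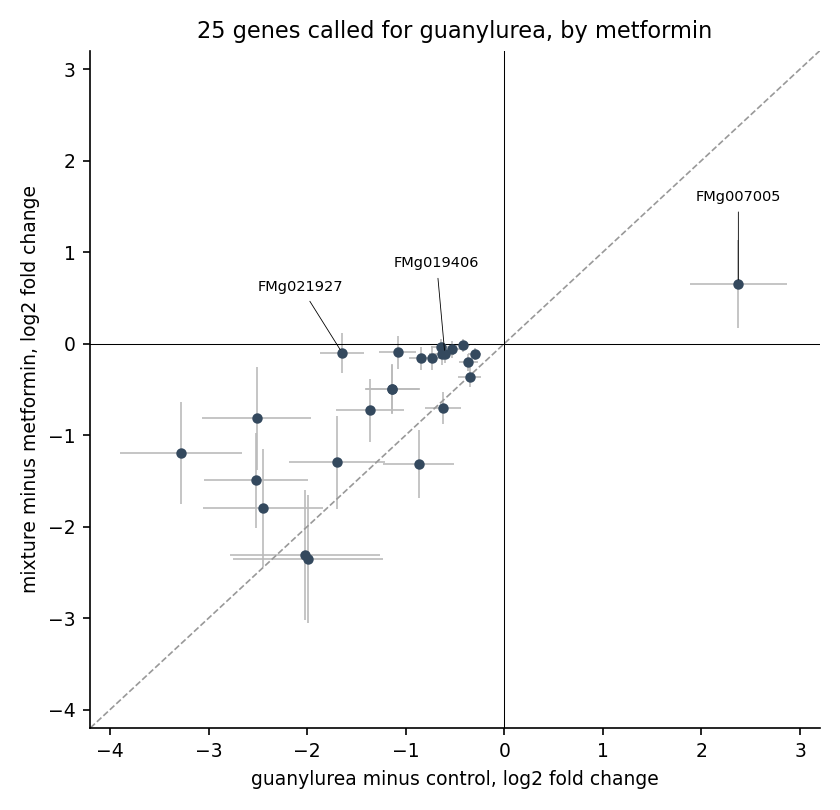
The 25 called genes are placed by log2 fold change for guanylurea minus control (horizontal) and mixture minus metformin (vertical), with bars of 1 SE on each axis and a dashed line of equal change. The genes lie mostly nearer to 0 on the vertical axis, and 20 of 25 had the larger change without metformin, beside 9643 of all 18145 genes.

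The 7 genes whose arms differed also varied together between livers of the same group. That scatter enters the tests that chose them, and genes that vary together are not separate results. Deviations from the group mean of log2 CPM over all libraries correlated with a median Pearson value of 0.48 over their 21 pairs, and 10 of 21 pairs (47.6%) stood above 0.5. Of the pairs among the other 18 called genes 2.61% stood above 0.5, and of all pairs of tested genes 0.615%. The median over the 21 pairs was 0.598 in libraries with guanylurea and 0.411 in libraries without. These 7 genes were singled out after their values were seen, and the correlations are a description. FMg019406 and FMg021927 correlated at r = 0.606 and rho = 0.634 over all libraries (permutation test within groups, p = 1e-05 for each, the smallest that 100000 resamples can give, adjusted p = 6e-05 over 6 pairs). The permutation takes the libraries of a group as exchangeable, which a level that goes with library number would break. The r value was 0.600 without the 2 libraries farthest from the median of FMg019406, and 0.611, 0.669, 0.668 and 0.506 at 6, 24, 48 and 96 h. The other pairs among the 4 named genes did not pass, with adjusted p of 0.23 or more for r in the same permutation test. Among genes of the second kind, 2 lower genes correlated at r = 0.907. That pair stood at −7.86 and −7.87 on the fitted log2 scale at 48 h and at 2.67 and 2.74 at 6 h. Averaged over the times, DESeq2 gave −0.31 and −0.30, and the difference of mean log2 CPM was −0.57 and −0.42. A count of 0 was found in 20.9% and 34.0% of libraries, and neither gene was tested in the fit of 48 h alone. Whether the 2 genes are near-identical copies that share reads cannot be told from the identifiers, so their separate values are uncertain.

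At single times guanylurea gave calls chiefly at 96 h. EdgeR called 58 of 16436 genes there (0.353%), 45 lower and 13 higher, and 44 of the 58 changed by 2-fold or more. At 6 h it called 0 of 16112 genes (0%), with 485 at an unadjusted p under 0.05 where 805.6 would be expected. The 6 h count was 2 in DESeq2 and 1 in limma voom. At 24 h edgeR called 1 of 16416 genes (0.00609%), which was higher, and at 48 h 0 of 16608 (0%), with 1145 at an unadjusted p under 0.05 where 830.4 would be expected. DESeq2 called 2 and 3 genes at those times, and limma voom 0 (955 at an unadjusted p under 0.05) and 1.

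The 45 lower genes of 96 h had a median log2 change of −1.65, with −2.32 in the metformin-free arm and −0.88 in the metformin arm. In 45 of 45 the fitted change was below 0 in the metformin arm too, and 16 of the 45 had an unadjusted p under 0.05 there, although both arms enter the call. Against the same 96 h controls, which the 3 values share, the median difference of log2 CPM was −1.26 in guanylurea livers, −1.04 in mixture livers and −0.43 in livers with metformin alone. The 13 higher genes had medians of 1.54 for both arms together, 1.62 without metformin and 0.99 with it. At the other times, in libraries that the call did not use, the 45 lower genes had median changes of 0.01 at 6 h, −0.09 at 24 h and 0.05 at 48 h, and 21, 27 and 20 of them were lower. The 96 h genes of both directions kept their direction in 39.7%, 60.3% and 37.9% of cases at 6, 24 and 48 h, beside 49.9%, 54.8% and 43.1% of all genes. Of the 25 genes called on the average, 4 were among the 58.

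The 96 h count moved with 2 control libraries of low agreement: 35 genes passed without control number 4, 42 without number 2 and 23 without both. Of the 45 lower genes 17 remained called without both, and of the 13 higher genes 4. Without every library of low agreement 13 genes passed at 96 h, and with the replicate number as a block edgeR called 0. What the replicate numbers stand for is not given in the labels. In DESeq2 the 96 h count was 189, and in limma voom it was 0, with 2045 at an unadjusted p under 0.05.

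For guanylurea minus control at 96 h, 458 of 16436 genes were called. This call used the 96 h controls, including numbers 2 and 4 of low agreement. The count without those controls is not given here. The arms share no library, so the 458 genes could be followed in mixture minus metformin. There 297 of 458 kept their direction, or 64.8%, beside 52.7% of all 16436 genes, and the 333 lower genes had a median of −0.13, against −1.24 in the arm that chose them. Of the 458, 15 reached an unadjusted p under 0.05 in the same direction, beside 421 of all 16436 genes. After adjustment 0 of the 458 passed.

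Over the 4 times the 24 lower genes of the averaged contrast had median changes of −0.51, −0.49, −0.64 and −0.69, in the order 6, 24, 48 and 96 h. The direction held at all 4 times in 22 of the 25 genes (88%), beside 11.9% of all genes, a share that selection on the average raises. Because the average chose them, genes called without a given time were followed in that time alone. Leaving out 96 h called 11 genes, and 10 of the 11 kept their direction at 96 h (90.9%), beside 47.8% of all genes. Of the 11, 5 had an unadjusted p under 0.05 in the same direction at 96 h, beside 1329 of all 18145 genes. The 10 lower genes of the 11 had medians of −0.52 in the call and −0.32 at 96 h. Of the 11, 8 are among the 25, some of which vary together, so the 11 may not be separate results. Leaving out 6 h called 28 genes, and 14 of 28 kept their direction at 6 h (50%), beside 50.4% of all genes. Leaving out 24 h called 77, of which 33 kept their direction (42.9%, beside 53.3%), and leaving out 48 h called 54, of which 29 did (53.7%, beside 45.2%). Of the 77 genes, 13 passed at 24 h in the fit of all libraries, and all 13 did so in the direction opposite to their call.

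**Figure D5:**
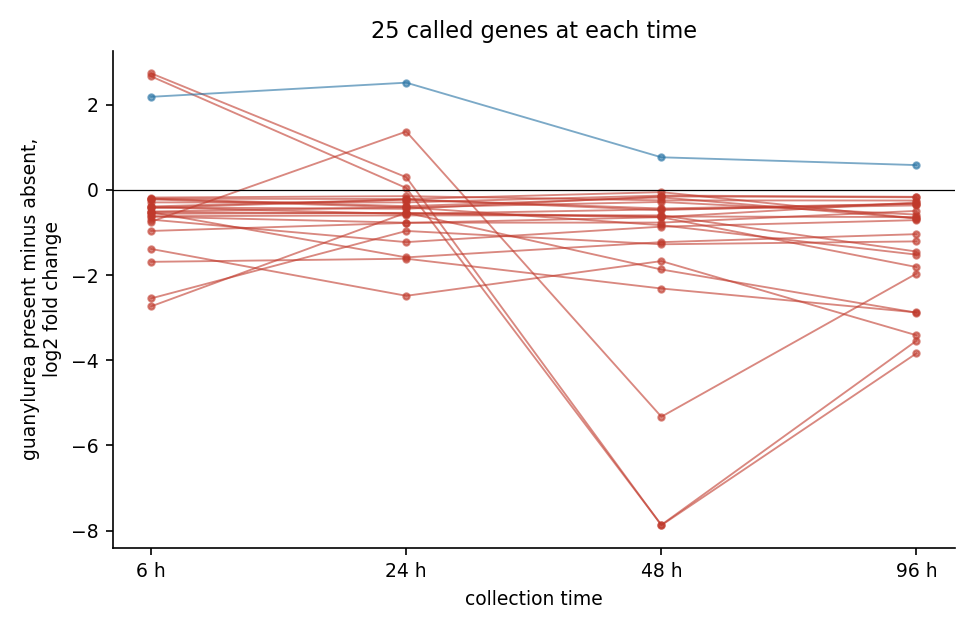
Lines join the log2 fold change of guanylurea present minus absent at each collection time for the 25 called genes, with lower genes in red and the higher gene in blue. Most lines stay below 0, while 2 lower genes that had libraries at a count of 0 drop to fitted values of −7.86 and −7.87 at 48 h.

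A test of whether the guanylurea difference varied between times called 256 genes (1.41%). The largest difference of a called gene fell at 96 h in 146 of them, at 48 h in 68, at 24 h in 23 and at 6 h in 19. All tested genes leaned the same way, with median absolute log2 changes of 0.0951 at 6 h and 0.1003 at 24 h. These medians were 0.1172 at 48 h and 0.1447 at 96 h. The time of the largest difference was not counted over all genes, so the lean to 96 h may not be particular to the 256. At 96 h 105 of the 146 were lower and 41 higher, whereas at 48 h 45 of the 68 were higher and 23 lower. Their level was low (median of the edgeR average log2 CPM 0.33, where the whole table had 2.34), and 46.1% of them lay below 1 CPM against 20.6% of all. Limma voom called 0 genes in this test, with 1294 at an unadjusted p under 0.05, and DESeq2 called 159, of which 146 were among the 256. On a single simulated data set this edgeR test made false calls well above its nominal rate and the other tools did not. The 256 may thus include more false calls than the threshold states.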

How the data were processed

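Liver RNA of male fathead minnows was sequenced in 16 groups, mapped here by sample title. The deposited values are expected counts per gene and per transcript, stored as whole numbers with no scaling for depth. The submitters' processing notes list RSEM 1.3.1, Bowtie2 2.3.5 and bcl2fastq 1.8.4, without their order. Which genome build, annotation and strand setting served is not given in the sources used here. RSEM divides reads that match several genes by an estimate, so near-identical copies have uncertain counts.

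Rounding altered no value. In R 4.3.3, edgeR 4.0.16 was run with filterByExpr (minimum count 10, minimum total count 15), TMM scaling, a robust quasi-likelihood fit and Benjamini-Hochberg adjustment over every gene tested. Averages, arms and differences between arms or times came from a fit of all libraries with 16 group means, and calls of single times from a fit of that time. Alternatives were DESeq2 1.42.0, limma 3.58.1 voom, other scalings, filters, left-out libraries or times, and a replicate block. Log2 CPM used a prior count of 2. The edgeR average log2 CPM of a gene is the fitted average level that edgeR reports. It is not the mean of the log2 CPM values of the libraries. The fits were tested on simulated data with known changes. For a difference between times 27 of 114 edgeR calls were false, well above the nominal rate. In DESeq2 4 of 91 were false, and in limma voom 4 of 83. For the averaged contrast 12 of 172 were false in edgeR, 17 of 178 in DESeq2 and 7 of 161 in limma voom. At 96 h the values were 2 of 123, 9 of 139 and 2 of 121, in the same order. Both DESeq2 shares, and the edgeR share for the averaged contrast, also stood above the nominal rate. Each contrast had a single simulated data set, so shares near the nominal rate cannot be told from it. Counts were drawn independently for each gene and library, so shared variation between genes or neighbouring library numbers was not simulated. The named genes are the 2 of smallest p in each direction on the averaged contrast. The contrast and lists were chosen with earlier results of these data known. Pathway and marker lists could not be applied, because no identifier matched a name.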

Additional observations from a re-analysis of the deposited data

Results flagged for a closer look

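The guanylurea difference itself varied with metformin or with time in 4 results, each by a test of that variation. For FMg019406 the difference with metformin minus that without was 0.48 on the log2 scale, and for FMg021927 it was 1.54. The first passed under 12 of 22 alternatives and the second under 21 of 22, and neither passed without the libraries numbered 5 (edgeR adjusted p = 0.185 and 0.0577). Over the table, 240 genes differed between the arms and 256 between times. The change with guanylurea was higher in the metformin arm than in the metformin-free arm for 116 of the 240 and lower for 124. The 240 was 1 without the libraries numbered 5, and edgeR's test between times made false calls above its nominal rate on simulated data.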

How the results depend on the processing

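The averaged changes of FMg019406 and FMg021927 kept direction and call under 24 of 24 alternatives each. None of these left out a run of neighbouring library numbers. FMg007005 kept its direction under the 24 and lost its call under 9, and FMg013015 kept its direction under the 24 and passed under 5. The 24 include the same fit at the looser threshold of 0.10. There a called gene cannot lose its call, and the pass of FMg013015 was already given by its main fit. Counts were less stable. The averaged contrast (25 genes) gave 63 at an adjusted p under 0.10, 64 with DESeq2, 43 with no low-count filter, 157 in the transcript table (83 lower), 50 without libraries of low agreement, 77 with 24 h left out, 54 with 48 h left out and 11 with 96 h left out. Leaving out 1 replicate number gave 12 to 72. The test between times (256) gave 159 with DESeq2, 0 with limma voom (1294 at an unadjusted p under 0.05), 700 with no filter, 786 transcripts, 147 without libraries of low agreement, and 166 to 265 without 1 number. Guanylurea minus control (236) gave 458 at 0.10, 409 with limma voom, 414 transcripts, 112 with 96 h left out, and 75 to 385 without 1 number. Mixture minus metformin (0) gave 4 at 0.10, 5 with DESeq2, 3 with limma voom, 160 transcripts, 6 without libraries of low agreement, 4, 2 and 2 with 24, 48 and 96 h left out, and 0 to 7 without 1 number. The difference between arms (240) gave 659 at 0.10, 406 with DESeq2, 1381 with limma voom, 381 transcripts, 482 without libraries of low agreement, 61, 32 and 53 with 24, 48 and 96 h left out, and 1 to 489 without 1 number. At 6 h (0) DESeq2 gave 2, limma voom 1, no filter 2 and the fit of all libraries 2. At 24 h (1) the count was 2 at 0.10 and with DESeq2, 12 with no filter, 27 in the fit of all libraries, and 0 with limma voom, transcripts, the replicate block or without libraries of low agreement. At 48 h (0) it was 1 at 0.10, with limma voom and without libraries of low agreement, 3 with DESeq2, 45 with no filter and 64 in the fit of all libraries. At 96 h (58) it was 213 at 0.10, 189 with DESeq2, 0 with limma voom, 268 with no filter, 24 transcripts, 13 without libraries of low agreement, 425 in the fit of all libraries, 35 to 42 without control number 4 or 2 and 23 without both. The cause was not tested.

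Same-numbered libraries of a time did not deviate together over all genes (median correlation 0.00164 over 285 pairs, 19.6% above 0.1). Of the series, 18 libraries correlated best with their own number. The check compared equal numbers only, so it cannot show whether neighbouring numbers behave alike. With guanylurea alone the highest FMg021927 library was number 11, 10, 11 and 9 at 6, 24, 48 and 96 h. For FMg019406 it was number 9, 11, 11 and 9. No label says what the numbers stand for. With the replicate block, counts were 17 for the averaged contrast, 109 between times, 217 for guanylurea minus control, 2 for mixture minus metformin, 331 between arms and 0 at 96 h. How calls depend on depth was not tested.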
